A study of Homo sapiens with 2 samples.

Results

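The SLC25 mitochondrial carriers were followed in HCT116, an established human colon cancer cell line, with and without stable expression of HOXA5 short RNA, a non-coding transcript of the HOXA5 locus that lacks the first exon. Both groups were transfected with a pEB vector and kept under blasticidin for 2 weeks. In one group the vector carried HOXA5 short RNA (HOXA5 short), and the other was mock-transfected (pEB-mock, here mock). From each, 400 ng of total RNA was labeled with Cy3 and hybridized to 1 Agilent human array. The labels do not say whether each line was a clone or a pool. The members were the non-control probes whose NM_ transcript accession maps to a gene symbol beginning with SLC25A, without regard to signal. They were 56 of 50599 probes and represented 47 of the 21610 genes that could be named, of which 38 had 1 probe and 9 had 2. Every member was printed in 1 spot, and no member spot was saturated or marked as an outlier. With 1 array per group nothing could be tested between the groups, and the differences carry no replicate check.

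SLC25 proteins are the main family of solute carriers of the inner mitochondrial membrane. They are encoded in the nucleus, made in the cytosol and brought in by the TOM and TIM translocases. They exchange nucleotides, phosphate, carboxylates, amino acids, cofactors and iron between the cytosol and the matrix, and so connect oxidative phosphorylation, the urea cycle, fatty acid oxidation and heme synthesis with the rest of the cell. The ADP/ATP carriers and the phosphate carrier supply the ATP synthase. A few relatives lie in the outer membrane or in peroxisomes.

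The labels were first checked on the arrays. The HOXA5 probe read 39.4 in mock and 346 in HOXA5 short, 7.11-fold higher after scaling. It lay in row 333 and column 13, and none of the 18 spots measured around it differed 2-fold. Column 13 lies within columns 1 to 14, where 6.53% of compared probes printed in 1 spot differed 2-fold, against 0.973% in the other columns. Whether the probe reads HOXA5 short RNA apart from HOXA5 mRNA was not tested. Of 7 epithelial genes, EPCAM, CDH1, KRT8, KRT18 and KRT19 were well above background and CEACAM5 and VIL1 were not. These genes do not tell 1 epithelial cell line from another, so the name of the line was not checked. Of 6 genes of other cell types, COL1A1 was above background (16.7 and 22.6), while PTPRC, CD3E, PECAM1, COL1A2 and ALB were not on either array. In a bulk RNA sample, fewer cells expressing a gene and less of its RNA per cell cannot be told apart.

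Most of the family was detected. The software of the scanner marked 43 of the 56 probes as well above background in mock and 43 in HOXA5 short. Of these, 42 probes of 36 genes were above background on both and were compared, which is 75% of the members against 35.5% of all probes. All probes include those that could not be named, whereas every member was named. Of the 30000 named probes, 15302 were compared. One probe was above background on the mock array alone (SLC25A25), one on the HOXA5 short array alone (SLC25A45), and 12 on neither. The compared members ran from 8.31 to 5550 in mock, with a median processed signal of 190, and from 9.26 to 11639 in HOXA5 short, with a median of 227. Processed signals are background-corrected spot intensities in arbitrary units. They also depend on the probe, so the signals of different probes do not rank the genes.

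For 9 genes no probe was well above background on either array. These were SLC25A2, which carries ornithine, SLC25A18, a glutamate carrier, SLC25A27, a brain relative of the uncoupling proteins, SLC25A31, the testis form of the ADP/ATP carrier, SLC25A40, which carries glutathione, and SLC25A34, SLC25A35, SLC25A48 and SLC25A53. Their signals did not exceed 6.54 in mock and 8.82 in HOXA5 short. No difference is given for them. The gene SLC25A52 had no probe under the rule.

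**Figure D1:**
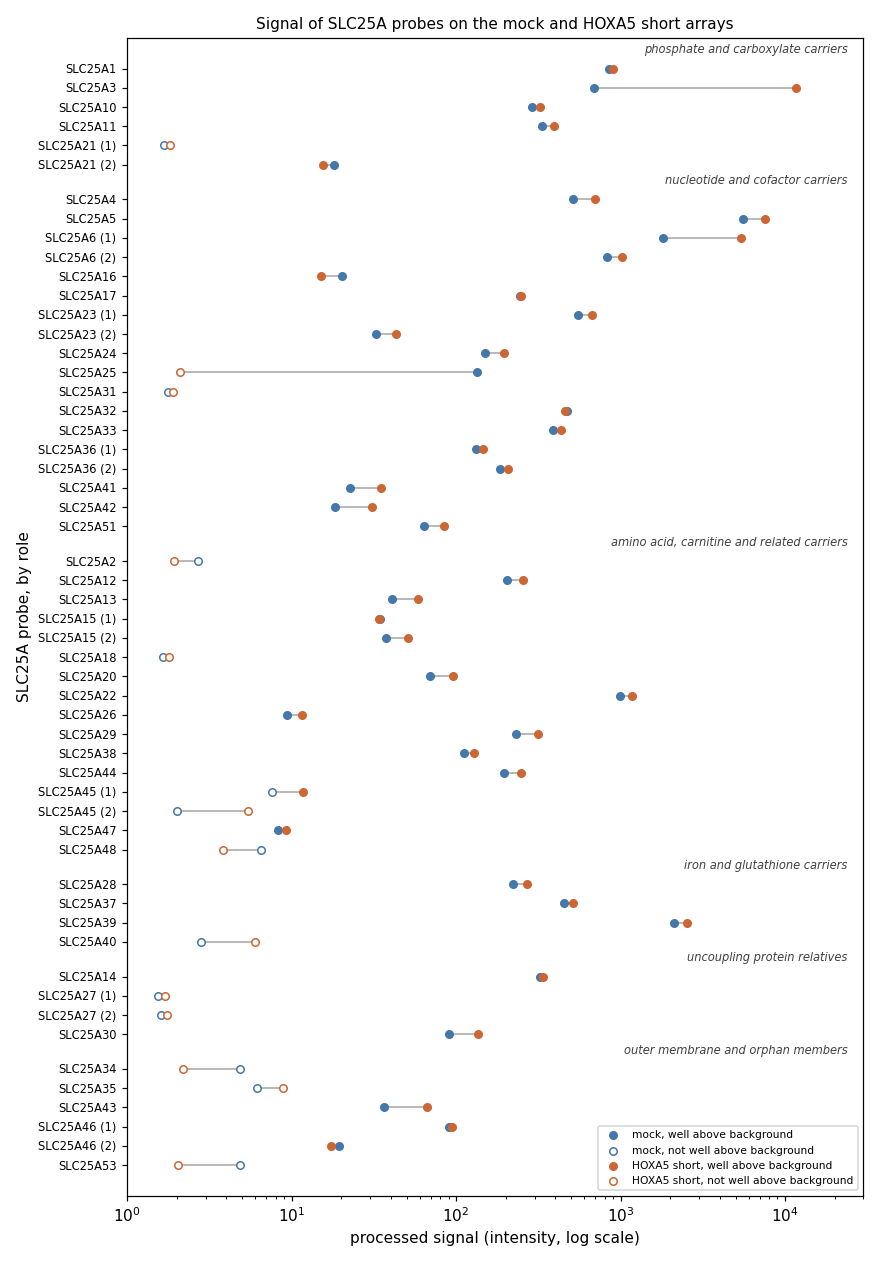
Processed signal (intensity, log scale) of the SLC25A probes of the named genes by role, with blue for mock and orange for HOXA5 short. Filled points were well above background and open points were not, and a number in brackets tells apart the probes of one gene. Most pairs lie close together with the HOXA5 short point slightly to the right before scaling, while SLC25A3 (686 and 11639) and SLC25A25 (134 and 2.11) lie far apart.

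Differences are given as the log2 signal of HOXA5 short minus mock, after each array was scaled to the 75th percentile of its non-control probes (35.6 for mock and 44.0 for HOXA5 short). The family was centered near 0. The median difference of the 42 compared members was -0.03, beside -0.02 for all 17938 compared probes. There were 20 members above 0 and 22 below. Scaling to the 7 RNA spike-ins instead added 0.41 to every difference and put 16 of the 36 genes on the other side of 0, so the sign of a small difference holds only relative to this scaling. Of the members, 37 lay within 0.5 of 0 (88.1%), against 90.8% of all compared probes.

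Differences of at least 2-fold were few. Signals at least 2-fold higher with HOXA5 short were found for 2 member probes, SLC25A3 and one of the probes of SLC25A6, where 1.06% of all compared probes were at least 2-fold higher. No compared member was at least 2-fold lower, where the share of all compared probes was 0.318%. SLC25A25, which was not compared, had a bound of at least 20.8-fold lower and is described below. To gauge the measurement, 593 probes with several spots each were used, whose single spots differed between the arrays with an SD of 0.26 (log2). It was 0.32 for signals below 15 and 0.24 above 200, and it holds no spread between cultures. Beyond 2 such SDs of their own signal range were 3 members, SLC25A3 and SLC25A6 on the higher side and SLC25A16 on the lower side, against 7.45% of all compared probes. SLC25A16 came within 2 SDs with scaling to the spike-ins (-0.32). With normexp background correction SLC25A16 differed by -0.21. The offset of 50 added there makes differences of dim probes smaller, and the SD was not computed anew. The normexp value therefore cannot be set against this SD.

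**Figure D2:**
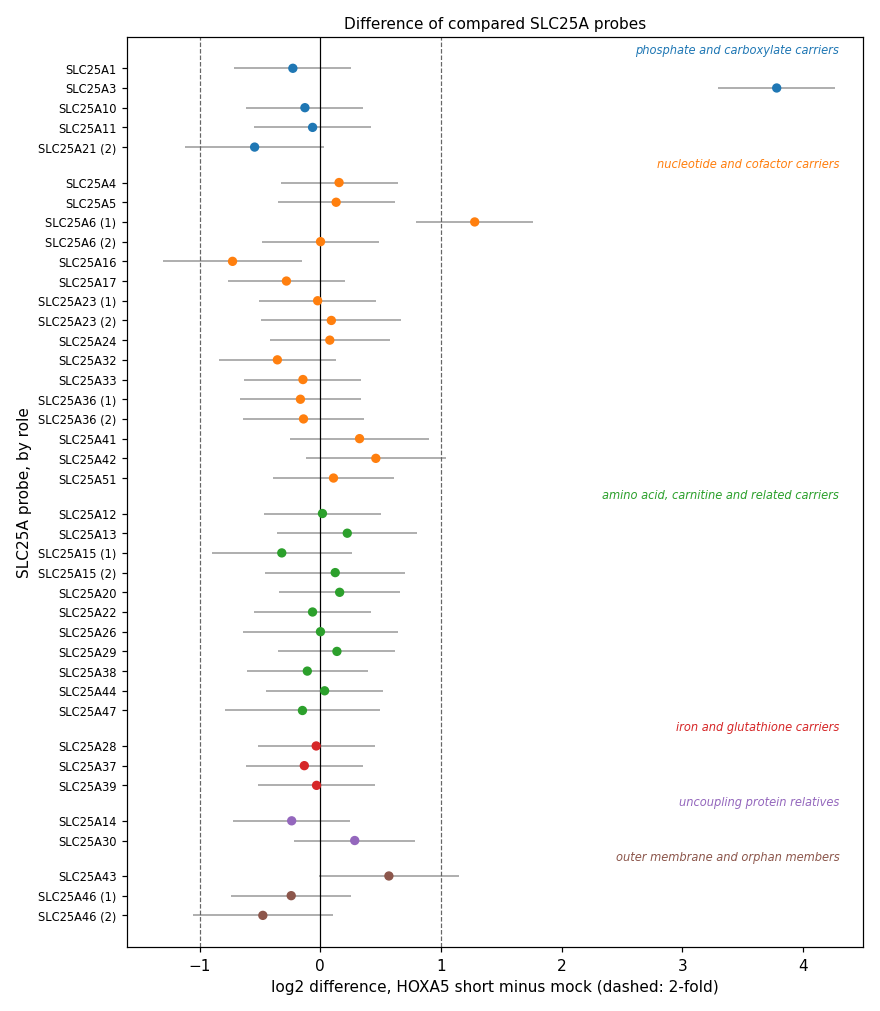
Log2 difference (HOXA5 short minus mock) of the compared SLC25A probes of the named genes, colored by role. Bars are 2 SDs of the difference of a single spot at that signal, and the dashed lines mark 2-fold. SLC25A3 at 3.78 and the first probe of SLC25A6 at 1.28 lie beyond 2-fold, and most other bars cross 0.

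SLC25A3 (NM_213611), the mitochondrial phosphate carrier, which brings in phosphate for the ATP synthase and copper for cytochrome c oxidase, had the highest difference of the compared probes. Its signal was 686 in mock (error 68.6, as given by the scanner software) and 11639 in HOXA5 short (error 1164). After scaling it was 13.7-fold higher with HOXA5 short, a log2 difference of 3.78. The probe lay in row 306 and column 8 of the grid. Of the 9 spots of other probes measured within 3 rows and 3 columns of it, 4 were also at least 2-fold higher. Those 9 neighbours ran from -0.34 to 3.54 with a median of 0.10. Within 2 rows and columns, 3 of 5 neighbours were 2-fold higher, with a median of 2.25, and within 5 rows and columns 9 of 37 were. The probe of a processed copy of the gene, SLC25A3P1, which lay elsewhere on the grid, had 120 and 164 and a difference of 0.15, and none of its 16 neighbours differed 2-fold. The array had no other NM_ probe for SLC25A3, so its value rests on this spot. How much of it the surroundings account for was not tested.

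The other carriers of phosphate and carboxylates did not reach 2-fold. SLC25A1, the citrate carrier that exports citrate for fatty acid synthesis, differed by -0.23. SLC25A10, which exchanges dicarboxylates such as malate for phosphate, differed by -0.13. SLC25A11, the oxoglutarate carrier of the malate-aspartate shuttle, differed by -0.06. SLC25A21, which carries oxodicarboxylates, had 18.2 and 15.4 on its one detected probe and the lowest difference of the group (-0.54). Its other probe was not above background on either array. Over the 5 compared probes of this group the median was -0.13, with 1 above 0 and 4 below.

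The ADP/ATP carriers export ATP made in the matrix in exchange for ADP. SLC25A5, the form common in dividing cells, had 5550 in mock and 7508 in HOXA5 short, a difference of 0.13. SLC25A4, the form best known from heart and skeletal muscle, differed by 0.16. SLC25A6 (NM_001636), a form expressed in many tissues, was read by a pair of probes that disagreed. Its first probe had 1807 and 5416, a difference of 1.28 or 2.43-fold higher with HOXA5 short. Its second probe had 830 and 1026, a difference of 0.0024. The gap of 1.28 between them is wider than 2 single-spot SDs, and the mean for the gene was 0.64, below 2-fold. The first probe lay in row 178 and column 2, at the edge of the grid, and none of its 12 neighbours differed 2-fold (from -0.46 to 0.98), nor did any of 29 within 5 rows and columns. The second lay in column 138 with 18 neighbours, none of them past 2-fold. Whether each probe can also bind the closely related transcripts of SLC25A4 and SLC25A5 was not tested.

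SLC25A25 (NM_001006641) belongs to the calcium-regulated carriers, which exchange ATP-Mg for phosphate and set the adenine nucleotide content of the matrix. Its probe had 134 in mock (error 13.6) and 2.11 in HOXA5 short (error 2.12), where it was not well above background. Against the lowest signal accepted there, it was at least 20.8-fold lower with HOXA5 short. It was the one member detected on the mock array alone, and 14.3% of all such probes had a bound of at least 2-fold lower. The spot lay in row 238 and column 4, and 5 of the 7 neighbours measured within 3 rows and columns were at least 2-fold lower, with a median of -1.28 and a range from -2.72 to -0.72. Within 5 rows and columns 9 of 21 were 2-fold lower, and within 2 there was no measured neighbour. The antisense gene SLC25A25-AS1, read by a probe elsewhere, had 109.2 and 162 and a difference of 0.27. The part of the surroundings in the SLC25A25 value was not tested.

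The other ATP-Mg carriers of the family were not past 2-fold. SLC25A24, also regulated by calcium, differed by 0.08, and SLC25A41, which lacks the calcium-binding domain, by 0.33. SLC25A23, again regulated by calcium, had 553 and 673 on its first probe (-0.02) and 32.6 and 42.9 on its second (0.09), so its probes lay close together.

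**Figure D3:**
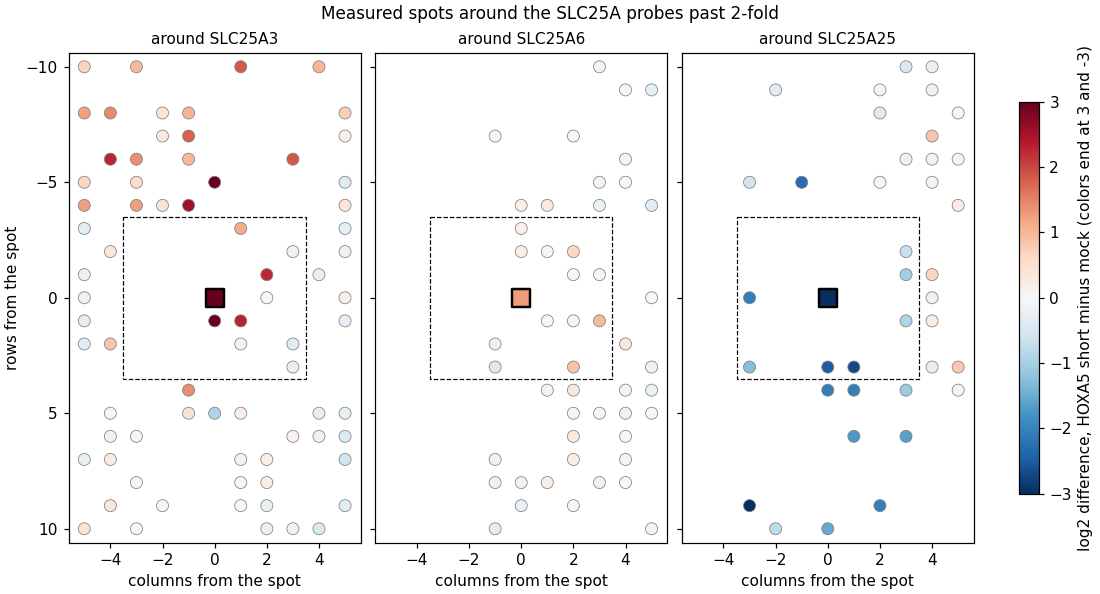
Log2 difference (color, ending at 3 and -3) of measured spots around the 3 SLC25A probes past 2-fold, by distance in rows and columns of the array grid. Circles are spots of other probes above background on both arrays, the square is the member, and the dashed box is the window of 3 rows and 3 columns. The SLC25A25 square is colored by its plain difference, not its bound, as its HOXA5 short signal was not well above background. Spots near SLC25A3 include higher ones (4 of 9 in the box), those near SLC25A25 lower ones (5 of 7), and those near SLC25A6 none past 2-fold (0 of 12).

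Among carriers of coenzyme A and other cofactors, SLC25A16, a mitochondrial carrier linked to coenzyme A, had the lowest difference of the 42 compared probes, SLC25A25 with its bound not being among them. It had 20.1 in mock and 15.01 in HOXA5 short, a difference of -0.73 or 1.65-fold lower, and none of its 19 neighbours differed 2-fold. SLC25A42, which imports coenzyme A, differed the other way by 0.46. SLC25A17, the peroxisomal carrier of coenzyme A and related nucleotides, differed by -0.28. The 3 genes did not share a sign, but SLC25A42 and SLC25A17 lay within 2 single-spot SDs of 0. With the spike-ins SLC25A17 was above 0 (0.13).

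SLC25A32, the folate and FAD carrier, differed by -0.36. SLC25A51, which imports NAD, differed by 0.11. The pyrimidine nucleotide carriers SLC25A33 and SLC25A36 serve mitochondrial DNA and RNA synthesis. SLC25A33 differed by -0.14, and the probes of SLC25A36 had 132 and 146 (-0.16) and 184 and 206 (-0.14). Over all 18 compared probes of nucleotide and cofactor carriers the median was 0.04, with 10 above 0 and 8 below.

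None of the 11 compared probes of the amino acid, carnitine and related carriers was 2-fold higher or lower, and their median was 0.02. The aspartate-glutamate carriers of the malate-aspartate shuttle, SLC25A12 and SLC25A13, differed by 0.02 and 0.22. SLC25A13 had 40.6 and 58.6, the highest difference of the compared probes of the group. SLC25A15, the ornithine carrier of the urea cycle, had 34.4 and 34.1 on the probe with the lowest difference of the group (-0.32) and 37.8 and 50.8 on its other probe (0.12), so its probes fell on either side of 0. SLC25A22, a glutamate carrier, differed by -0.06. SLC25A20, the carnitine-acylcarnitine carrier of fatty acid oxidation, differed by 0.16.

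Of the remaining genes of this group, SLC25A26, which imports S-adenosylmethionine, differed by 0.0018 from signals of 9.35 and 11.6, close to background. SLC25A29, a carrier of basic amino acids, differed by 0.14. SLC25A38, which brings in glycine for heme synthesis, differed by -0.11. SLC25A44, a carrier of branched-chain amino acids, differed by 0.04, and SLC25A47, a gene best known from liver, by -0.15 from signals of 8.31 and 9.26, close to background. The first probe of SLC25A45 had 7.59 in mock, not well above background, and 11.7 in HOXA5 short. The bound was at least 1.23-fold higher, below 2-fold, and 6.12% of all probes detected on the HOXA5 short array alone had a bound of at least 2-fold higher. Its second probe was not above background on either array.

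The iron and glutathione carriers lay closest together, but only 3 probes of the group were compared, all with signals above 200. SLC25A40 was not above background on either array. The mitoferrins SLC25A37 and SLC25A28, which import iron for heme and iron-sulfur cluster synthesis, differed by -0.13 and -0.03. SLC25A37, the lower end of the group, had 456 and 514. SLC25A39, which imports glutathione, had 2105 and 2545 and a difference of -0.03. Before scaling all of these signals were higher in HOXA5 short, while after scaling all 3 genes lay below 0, within 1 single-spot SD of it. With normexp or the spike-ins the 3 genes lay above 0. The spike-in values, from 0.28 to 0.38, were beyond 1 such SD (0.24).

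Of the relatives of the uncoupling proteins, SLC25A14 had 323 and 338 (-0.24) and SLC25A30 had 90.2 and 136 (0.29). Of the outer membrane and orphan members, SLC25A46, an outer membrane protein involved in mitochondrial fission and lipid transfer, had 90.4 and 94.5 (-0.24) and 19.5 and 17.3 (-0.48), so both its probes were below 0. SLC25A43, whose substrate is not settled, had 36.3 and 66.4, a difference of 0.57, the highest after SLC25A3 and SLC25A6. It lay in column 164, the last of the grid, and the median of its 7 neighbours was -0.36, with none past 2-fold.

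Differences of 2-fold were more frequent in the first columns of the array. All 3 members past 2-fold, the bound of SLC25A25 included, lay between columns 2 and 8 of 164. In columns 1 to 14, 92 of 1408 compared probes printed in 1 spot differed 2-fold either way (6.53%), and in the other columns 155 of 15938 did (0.973%). The range of 14 columns was chosen after these values were seen and holds every member past 2-fold. Of the 4 compared members in columns 1 to 14, SLC25A3 and the first SLC25A6 probe were past 2-fold, and SLC25A1 and SLC25A33 were not. The 38 compared members in the other columns ran from -0.73 to 0.57, with a median of -0.03. That none was past 2-fold was fixed by the choice of columns. Their SD, made smaller by the same choice, was 0.26, beside 0.30 for all compared probes printed in 1 spot there. Over all 42 members the SD was 0.67, beside 0.33 for all 17938 compared probes.

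A spot was called uneven in its surroundings when it had at least 5 measured neighbours and at least 20% of them differed 2-fold. Of the 56 member spots, 51 had no neighbour past 2-fold, and 2 were uneven, those of SLC25A3 and SLC25A25. Of all 58717 non-control spots, 685 (1.17%) were uneven. All 56 member spots had at least 5 measured neighbours, whereas the 58717 include spots with fewer, which could not be called uneven. The median number of measured neighbours of a member spot was 17.5.

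**Figure D4:**
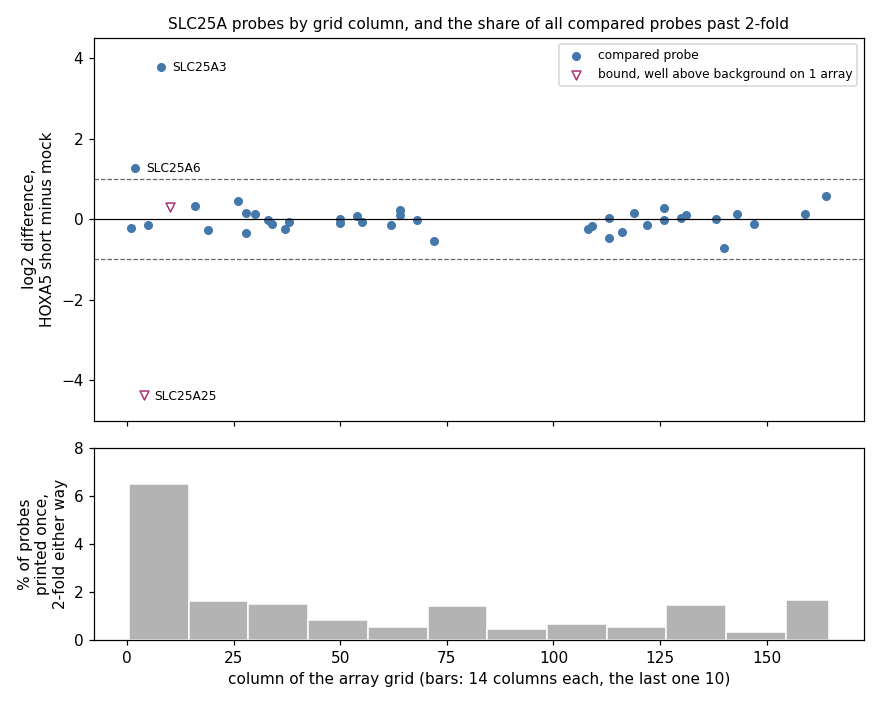
Upper panel, log2 difference of compared SLC25A probes against the column of the array grid, with triangles for the bounds of SLC25A25 and SLC25A45 and dashed lines at 2-fold. Lower panel, percent of all compared probes printed in 1 spot that differed 2-fold either way, in ranges of columns. The members past 2-fold lie in columns 2 to 8, within the first range, where the share was 6.53%.

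Genes that work beside the family were read in the same way. The mitochondrial carriers with other symbols were the uncoupling proteins UCP1, UCP2 and UCP3 and the outer membrane proteins MTCH1 and MTCH2. UCP1, the uncoupling protein of brown fat, was not detected. None of the other 5 probes was past 2-fold, and they ran from -0.09 to 0.22, both ends being probes of MTCH1. Of the 19 probes of 13 genes that import carriers, among them TOMM70, the receptor for carrier precursors, and TIMM22, the channel that inserts them, none was past 2-fold either. Their median was -0.02, and they ran from -0.20 (TIMM10B) to 0.85 (TIMM8B). The other probe of TIMM8B differed by -0.02, so that gene too was read differently by its probes.

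Of 18 compared probes of other mitochondrial membrane transporters, such as the pyruvate carriers MPC1 and MPC2, the calcium uniporter MCU, the porins VDAC1, VDAC2 and VDAC3 and the sideroflexins, 1 was 2-fold lower (0.318% of all compared probes) and none 2-fold higher (1.06% of all). It was SFXN4, with 1139 and 581 and a difference of -1.28. Its spot lay in row 241 and column 1, within 3 rows and 3 columns of the spot of SLC25A25, and all 3 of its measured neighbours were 2-fold lower. ABCB10, a transporter of the inner membrane needed for heme synthesis, had the highest difference of that list (0.94, from 18.0 and 42.5), and its other probe was not detected. The median of the list was 0.00028.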

How the data were processed

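Total RNA of 2 HCT116 cell lines, mock and HOXA5 short, was hybridized in 1 color to SurePrint G3 human arrays on 1 slide, with 1 array per group. Per the file headers, spots were quantified by the authors with Agilent Feature Extraction 11.5.1.1, and the deposited intensity of a spot is its background-corrected processed signal, with an error and a flag for well above background. The authors also deposited log2 values of 19461 probes, centered on each probe's mean, so that the columns are mirror images (medians 0.0057 and -0.0057). Their difference lay within 0.01 of the difference computed here for 99.98% of probes after a shift of 0.0016. Their direction was taken from this match, and their scaling is not stated.

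Here log2 signals were averaged over the spots of a probe and scaled to the 75th percentile of non-control probes. Probes were compared if well above background on each array and not in its lowest 20% of signals. Those above background on 1 array were given a bound against the lowest signal so marked on the other. By their accessions, 30000 probes (59.3%) and 85.3% of compared probes were named from RefSeq (GRCh38.p14). The files are annotated on hg19, so no coordinates are given. All SLC25A genes were named except 1, which enters the counts and medians and is not reported here. Both signals are given past 2-fold, for genes with several compared probes and for the ends of each role group. The members and lists were chosen with earlier results of these data known. Nothing could be tested with 1 array per group, so precision is limited by the number of arrays. Alternatives were other scalings, quantile normalization and normexp (offset 50, limma 3.58.1), other filters, thresholds and windows, and leaving out spots by position. Python 3.11.15 and R 4.3.3 were used, and the scripts were tested on simulated data.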

Additional observations from a re-analysis of the deposited data

How the results depend on the processing

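The median difference of the SLC25A probes lay between -0.05 and 0.07 under all alternatives but one. Scaling to the 7 RNA spike-ins gave 0.38, beside 0.39 for all compared probes, a shift of 0.41 from the 75th percentile scaling, and of all compared probes 3.9% were then 2-fold higher and 0.111% lower. The 2 members that were 2-fold higher became 3 with no filter on dim probes (3.36% of all probes), 1 without spots in uneven surroundings (SLC25A6; 0.883%), 1 at 3-fold (SLC25A3; 0.34%), 1 when genes were counted (SLC25A3; 0.642% of genes) and 0 without grid columns 1 to 14 (0.771%), an alternative chosen after seeing the data. The 0 compared members that were 2-fold lower became 1 in the deposited values (1.25% of all probes), 1 at 1.5-fold (SLC25A16, 2.32%) and 4 with no filter (4.63%). The 1 bound of at least 2-fold, of SLC25A25, became 0 without spots in uneven surroundings, and no bound can be given without columns 1 to 14. Of 415 values of single genes under the alternatives, 43 moved by more than the single-spot spread, 36 of them with the spike-ins. Another 4 moved with normexp, whose offset makes differences of dim probes smaller, while the spread was not computed anew for it. The sign was opposite in 38 values, 16 of them with the spike-ins, 6 with normexp and 5 with scaling to the median, and in 0 of them for a gene that was 2-fold higher or lower. SLC25A6 was 1.28 by its brightest probe and 0.00 without columns 1 to 14. The cause of these changes was not tested. No paired analysis was possible because there was 1 array per group. Dim probes set the limit of what could be compared, with lowest accepted signals of 7.737 and 7.996. Under a filter at the median signal 23 of the 36 genes kept a value. SLC25A16, SLC25A21 and SLC25A43 were among those that did not.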

Other observations

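Some probes of SLC25 loci carry a non-coding accession and stood outside the family count. A non-coding transcript of SLC25A51 (NR_024872) had 20.9 in mock and 18.7 in HOXA5 short, a difference of -0.47, while the coding probe of SLC25A51 differed by 0.11. Antisense genes of SLC25A5, SLC25A21, SLC25A30 and SLC25A48 were not above background on either array. Among the import genes, a probe of TOMM20 in grid column 4 differed by 0.70, and its other probes differed by -0.06 and -0.02.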
